A study of Homo sapiens with 4 samples.

Results

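The nucleotide exchange factors of HSP70 chaperones, among them the BAG (BCL2-associated athanogene) family, were followed at the transcript level in MM.1S cells, an established human multiple myeloma line. The 10 genes were taken by exact symbol from a table of 16057 genes: BAG1, BAG2, BAG3, BAG4, BAG5, BAG6 and HSPBP1 of the cytosol, SIL1 of the endoplasmic reticulum (ER), and GRPEL1 and GRPEL2 of mitochondria. Cells were grown with 350 nM JG342, an inhibitor that acts on HSP70 at an allosteric site, or with its solvent, DMSO, for 26 h. No other agent or genetic change is given for either group, and the design describes biological duplicates, so that each treatment has 2 RNA sequencing libraries of this 1 line.

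HSP70 proteins bind unfolded stretches of other proteins in a cycle driven by ATP. J-domain proteins stimulate ATP hydrolysis, which closes HSP70 on its client, and nucleotide exchange factors release ADP so that ATP can rebind and the client can leave. The cytosol holds exchange factors of the BAG, HSPBP1 and HSP110 types, the ER has SIL1 and HYOU1 for its HSP70 (HSPA5, also called BiP), and the mitochondrial matrix has GrpE-like proteins for its HSP70 (HSPA9, mortalin). Plasma cells and myeloma cells make large amounts of secreted immunoglobulin and lean on these systems.

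Transcript levels are given in TPM, RSEM's measure of transcript abundance as a share of the library, which are per unit of transcript length and so can be set side by side between genes. The libraries summed to between 994463 and 994718 TPM, and their depth in reads is unknown. All 10 plasma cell markers listed were present, with JCHAIN, the joining chain of secreted antibodies, between 5431 and 10383 TPM, while the B cell marker PAX5 was at 0.26 TPM or less and the myeloid markers CD14 and CSF1R at 0.99 TPM or less. The summed level of the plasma cell list was 15120 and 14840 TPM with DMSO and 10940 and 10250 TPM with JG342, with IRF4 and PRDM1 passing as higher in the limma test and TNFRSF17 and JCHAIN as lower, and the part of this in the results was not tested. Of the T cell, epithelial and stromal markers, CD2, EPCAM, COL1A1 and COL1A2 were at 0.38 TPM or less, KRT18 was between 1.24 and 2.9 TPM, and CD3E between 3.21 and 7.7 TPM. The myeloid marker LYZ was between 36.96 and 46.16 TPM. VIM, which many cell types express, was at 1280.9 and 1246.8 TPM with DMSO and 1677.01 and 2092.81 TPM with JG342 and passed as higher (log2 fold change 0.57, limma adjusted p 0.0117); its part in the results was not tested.

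Of the 10 exchange factors, SIL1 rose and BAG1 fell after JG342, and the other 8 did not pass the test. The test was limma on log2(TPM + 1) over the 12042 genes whose 4 libraries averaged 1 TPM or more, two-sided, with a Benjamini-Hochberg adjusted p under 0.05. All 10 factors were in this fit. Over all fitted genes 18.4% passed, so that 2 of 10 is near the background. By direction, 10.8% of all fitted genes passed as higher and 7.62% as lower. After median scaling BAG1 and SIL1 were again the 2 that passed, where 18.0% of all fitted genes passed, 8.03% as higher and 9.98% as lower. The groups did not overlap for 5 of the 10 factors, against 62.1% of all fitted genes. The median log2 fold change of the 10 was 0.07 and that of all fitted genes 0.03, and the medians of the absolute values were 0.14 and 0.22. In 8 of the 10 both same-numbered pairs of libraries moved the same way. The share of all fitted genes that did so was not counted. Where groups do not overlap, as in 62.1% of all fitted genes, both pairs necessarily move the same way.

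The factors differed more from each other than between treatments. With DMSO the order of the mean levels was BAG6, HSPBP1, BAG1, GRPEL1, SIL1, BAG3, BAG5, GRPEL2, BAG2 and BAG4, from 136 TPM down to 9.14 TPM. Neighbours in this order whose DMSO libraries overlapped were SIL1 with BAG3 and BAG5 with GRPEL2, and these do not differ beyond their spread. After JG342 SIL1 moved from rank 5 to rank 3, BAG1 from rank 3 to rank 5 and GRPEL2 from rank 8 to rank 6, while BAG6 and HSPBP1 stayed highest and BAG2 and BAG4 lowest. BAG6 alone made up 37.8% and 36.6% of the summed TPM of the 7 cytosolic factors with DMSO, and 40.8% and 38.6% with JG342.

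**Figure D1:**
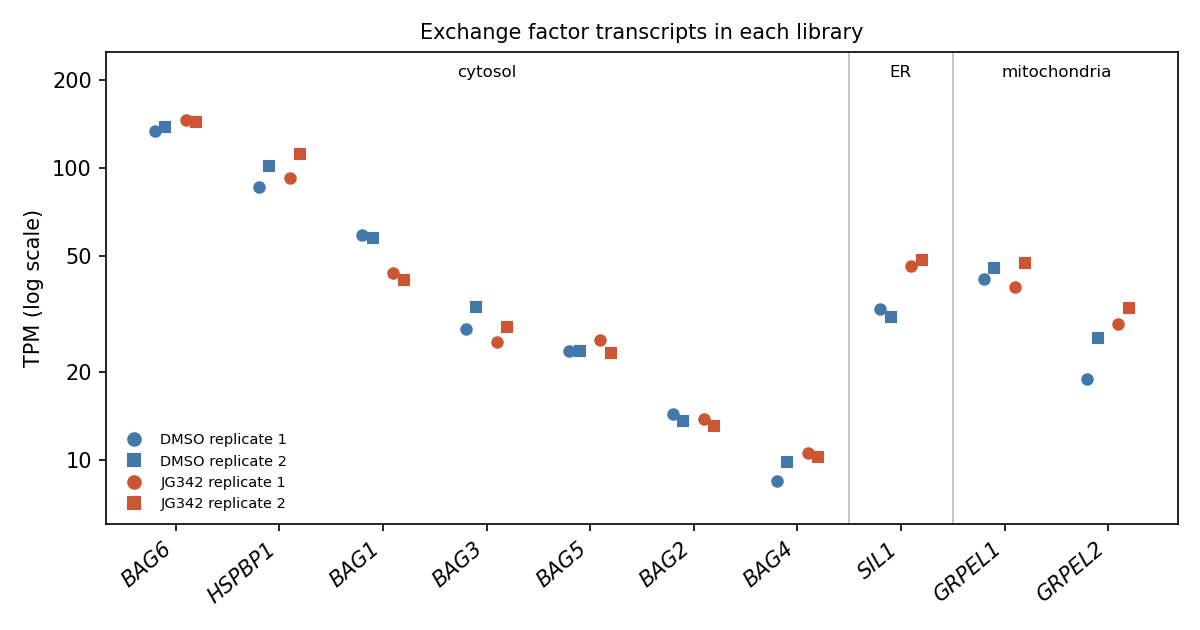
TPM on a log scale for the 10 exchange factors, grouped by compartment, with 1 point per library (circles replicate 1, squares replicate 2; blue DMSO, orange JG342). BAG6 is highest at 133.33 to 145.29 TPM and BAG4 lowest at 8.47 to 10.54 TPM; SIL1 lies higher and BAG1 lower in both JG342 libraries.

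Among the cytosolic factors 1 of 7 passed. BAG1 is a small BAG protein with a ubiquitin-like domain that links HSP70 to the proteasome and was first found as a partner of the survival protein BCL2. BAG1 (NM_001172415) stood at 58.67 and 57.28 TPM in DMSO replicates 1 and 2 and at 43.65 and 41.19 TPM in JG342 replicates 1 and 2. Both JG342 libraries were below both DMSO libraries, and the gap between the groups was wider than the gap within either. The mean fell by 26.8%, from 58.0 ± 0.98 TPM (SD, n = 2) to 42.4 ± 1.74 TPM. In bulk RNA, fewer cells with a transcript and less of it per cell cannot be told apart. The log2 fold change was -0.44 ± 0.10 (SE; limma adjusted p 0.0200), with -0.42 in the pair numbered 1 and -0.47 in the pair numbered 2. Only 8.01% of fitted genes had a lower fold change. This call ended when low genes were kept in the fit (limma adjusted p 0.0528), when the variance trend was left out (0.0537), and without DMSO replicate 1, DMSO replicate 2 or JG342 replicate 2 (0.107, 0.101 and 0.0694), with log2 fold changes that stayed between -0.48 and -0.40 when single libraries were left out.

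BAG3 is the stress-inducible member, a known target of heat shock factor 1 (HSF1) that couples HSP70 and small heat shock proteins to autophagy. BAG3 (NM_004281) was at 27.95 and 33.25 TPM with DMSO and at 25.21 and 28.44 TPM with JG342. The higher JG342 library lay above the lower DMSO library, so the groups overlapped, although each JG342 library was below the DMSO library of the same number. The log2 fold change was -0.18 ± 0.13 (SE; limma adjusted p 0.372), with a 95% interval from -0.48 to 0.12. The interval allows a fall of the size seen for BAG1 as well as no change.

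BAG6, also called BAT3 or Scythe, guards newly made tail-anchored membrane proteins and hands misfolded ones to ubiquitination. Its BAG-like domain binds partner subunits, and BAG6 is counted among the exchange factors here by its family name. BAG6 (NM_001098534) was at 133.33 and 137.97 TPM with DMSO and 145.29 and 143.11 TPM with JG342. The groups did not overlap, but the difference was small, with a log2 fold change of 0.09 ± 0.09 (SE; 95% interval -0.12 to 0.29; limma adjusted p 0.541). HSPBP1 is an armadillo-repeat exchange factor that also restrains the ubiquitin ligase STUB1 (CHIP). HSPBP1 (NM_001130106) was at 86.16 and 101.01 TPM with DMSO and 92.17 and 111.18 TPM with JG342. Here the libraries numbered 2 were high and those numbered 1 low in both treatments, the groups overlapped, and the log2 fold change was 0.12 ± 0.13 (SE; 95% interval -0.17 to 0.40; limma adjusted p 0.553).

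The remaining cytosolic factors were the least abundant. BAG5, which carries several BAG domains in 1 protein, was at 23.47 and 23.63 TPM with DMSO and 25.74 and 23.21 TPM with JG342 (NM_001015048). BAG2, an inhibitor of STUB1 ubiquitination, was at 14.3 and 13.52 TPM with DMSO and 13.82 and 13.06 TPM with JG342 (NM_004282). BAG4, known as a silencer of death domains on the tumour necrosis factor receptor, was at 8.47 and 9.81 TPM with DMSO and 10.54 and 10.21 TPM with JG342 (NM_001204878). The groups overlapped for BAG5 and BAG2 and were apart for BAG4, whose JG342 libraries were both higher. Their 95% intervals of the log2 fold change were -0.22 to 0.32, -0.34 to 0.25 and -0.16 to 0.50 in the same order, with limma adjusted p of 0.804, 0.843 and 0.455. The sign for BAG5 turned after median scaling and after quantile normalization. The value of BAG2 is uncertain, because 42.7% of its transcript lies on exons of RAB23 on the opposite strand and the strand setting of the counting is not stated; RAB23 itself was between 8.36 and 9.78 TPM. For BAG4, SIL1 and GRPEL2 such overlaps with genes of the opposite strand covered 7.4%, 7.9% and 3.1% of the transcript. LSM1, the gene that overlaps BAG4, was between 57.3 and 69.65 TPM, with a log2 fold change of 0.172. The value of BAG4 is uncertain for the same reason as that of BAG2, and the part of LSM1 in it was not tested.

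SIL1 is an exchange factor of HSPA5 in the ER, and loss of SIL1 causes Marinesco-Sjögren syndrome. SIL1 (NM_001037633) was at 32.74 and 30.86 TPM with DMSO and at 46.1 and 48.11 TPM with JG342. Both JG342 libraries were above both DMSO libraries, which lay close together. The mean rose 1.48-fold, from 31.8 ± 1.33 TPM (SD, n = 2) to 47.1 ± 1.42 TPM. The log2 fold change was 0.55 ± 0.11 (SE; limma adjusted p 0.0101), with 0.48 in the pair numbered 1 and 0.62 in the pair numbered 2, and 91.4% of fitted genes had a lower value. The call ended without DMSO replicate 2 (0.51, limma adjusted p 0.0792) and held without each of the other libraries, with log2 fold changes between 0.51 and 0.59.

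The mitochondrial pair GRPEL1 and GRPEL2 are GrpE-like factors of HSPA9, which pulls imported proteins into the matrix and folds them. GRPEL1 (NM_025196), the main housekeeping form, was at 41.55 and 45.48 TPM with DMSO and 38.94 and 46.97 TPM with JG342. The JG342 libraries lay on both sides of the DMSO libraries, and the log2 fold change was -0.02 ± 0.13 (SE; 95% interval -0.31 to 0.26; limma adjusted p 0.920). GRPEL2 (NM_152407), which has been described as sensitive to the redox state, was at 18.87 and 25.99 TPM with DMSO and 29.11 and 33.1 TPM with JG342. Both JG342 libraries were above both DMSO libraries, but the DMSO libraries differed from each other by 0.44 on the log2 scale. The log2 fold change of GRPEL2 was 0.47 ± 0.16 (SE), and it did not pass (limma p 0.0171 before and 0.0737 after adjustment). It was 0.60 in the pair numbered 1 and 0.34 in the pair numbered 2. In the fit blocked by replicate number GRPEL2 passed as higher beside SIL1, and BAG1 as lower (GRPEL2 limma adjusted p 0.000782, and 0.00895 with median scaling in addition). In that fit 34.9% of all fitted genes passed, 19.2% as higher and 15.7% as lower. GRPEL2 also passed without DMSO replicate 2 (0.69, limma adjusted p 0.0480). Without DMSO replicate 1 its log2 fold change was 0.25.

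**Figure D2:**
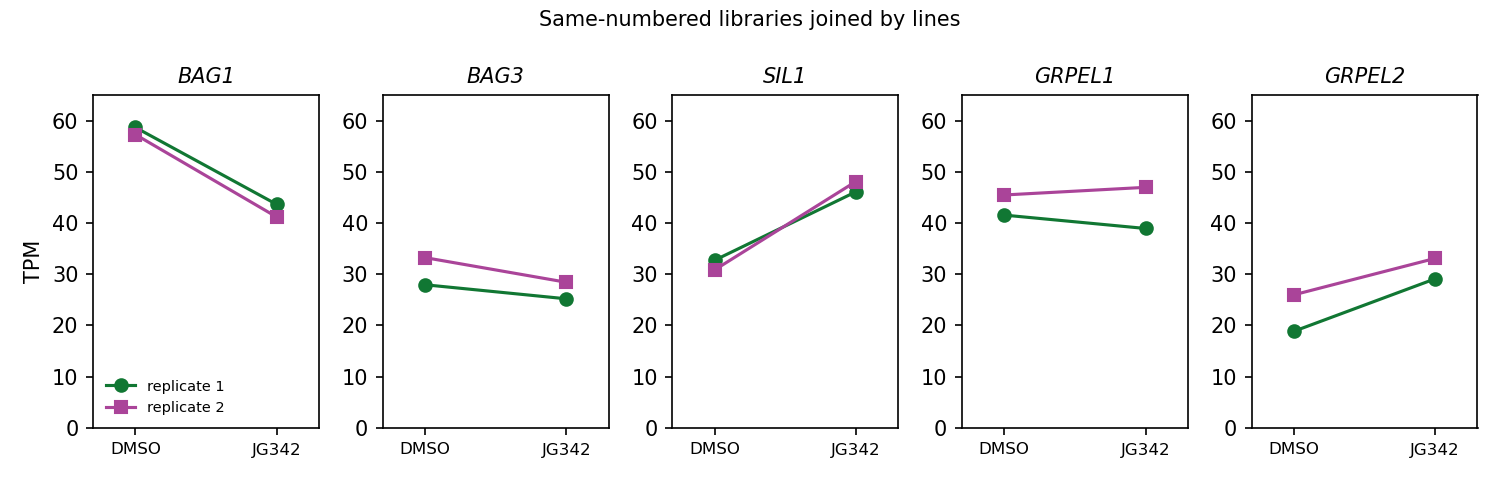
TPM of 5 exchange factors with DMSO and JG342; each line joins the libraries of 1 replicate number (green circles replicate 1, purple squares replicate 2), and each vertical axis starts at 0. Both lines fall for BAG1 (to 43.65 and 41.19 TPM) and rise for SIL1 (to 46.1 and 48.11 TPM), GRPEL2 rises from separate DMSO levels, and GRPEL1 moves in opposite directions in the 2 pairs.

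The share of GRPEL2 relative to GRPEL1 was higher with JG342. Per 100 TPM of GRPEL1 there were 45.4 and 57.1 TPM of GRPEL2 with DMSO and 74.8 and 70.5 TPM with JG342. The groups did not overlap. This ratio is given as a description, and the difference between the paralogs was not tested.

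**Figure D3:**
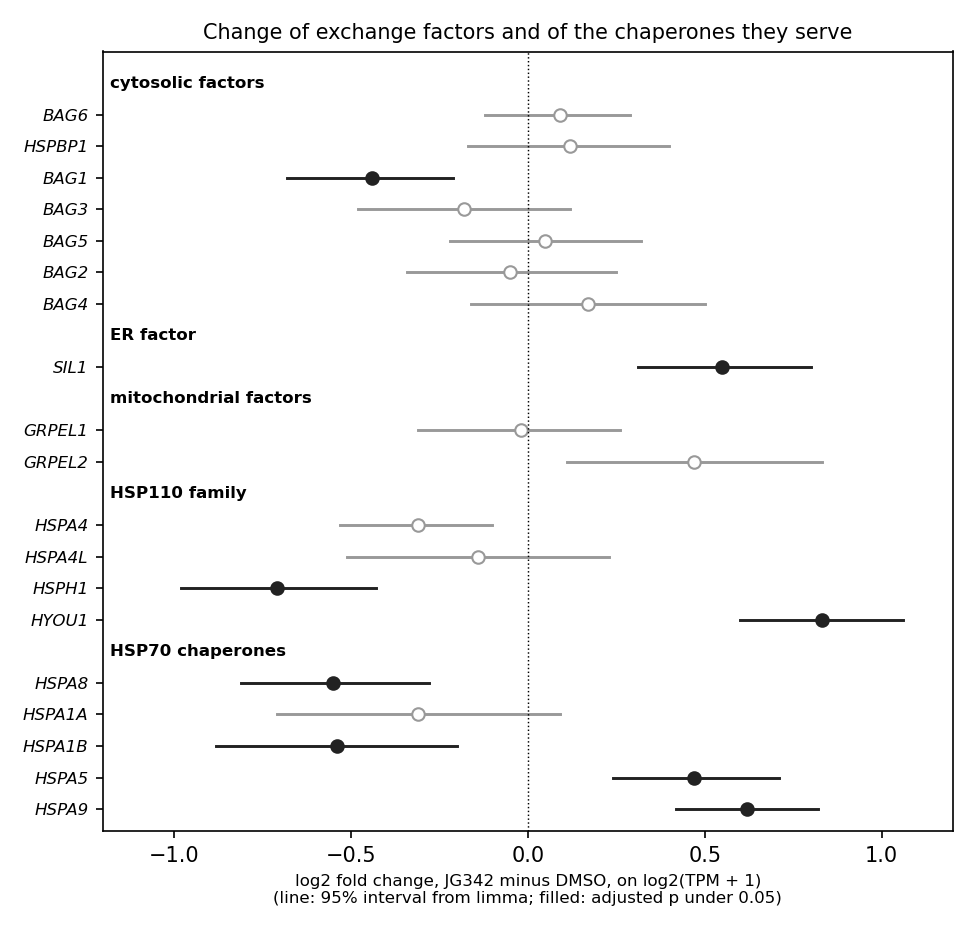
Log2 fold changes (JG342 minus DMSO) on log2(TPM + 1), with 95% intervals before adjustment for multiple genes, for the 10 exchange factors, the HSP110 family and the HSP70 chaperones; filled points have a limma adjusted p under 0.05. SIL1 (0.55) and BAG1 (-0.44) are filled among the 10 factors, and the HSP70 genes fall on both sides of 0.

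Of the 5 HSP70 genes these factors act on, 2 passed as lower, 2 as higher and 1 did not pass. Over all fitted genes 7.62% passed as lower and 10.8% as higher. HSPA8, the constitutive cytosolic HSP70, was at 2723.51 and 2759.69 TPM with DMSO and 2096.09 and 1677.95 TPM with JG342, and the inducible HSPA1B was at 139.22 and 181.66 TPM with DMSO and 97.38 and 122.5 TPM with JG342. HSPA5 of the ER was at 420.23 and 493.75 TPM with DMSO and 611.7 and 653.01 TPM with JG342. HSPA9 of mitochondria was at 322.91 and 327.35 TPM with DMSO and 490.82 and 510.69 TPM with JG342. In none of these 4 did the treatments overlap. By limma HSPA8 and HSPA1B passed as lower (-0.55 and -0.54, adjusted p 0.0140 and 0.0383), HSPA5 and HSPA9 passed as higher (0.47 and 0.62, adjusted p 0.0158 and 0.00259), and HSPA1A, a near-identical copy of HSPA1B whose reads can be split with it, did not (-0.31, adjusted p 0.253). With low genes kept in the fit, or without the variance trend, HSPA9 was the 1 of these 5 to pass. The calls of HSPA8 and HSPA5 ended without DMSO replicate 1, those of HSPA8 and HSPA1B without DMSO replicate 2, and that of HSPA1B without JG342 replicate 1 and after quantile normalization, with no change of direction.

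The 7 cytosolic factors summed to 352.4 and 376.5 TPM with DMSO and 356.4 and 370.4 TPM with JG342, so their groups overlapped. Per 100 TPM of HSPA8, HSPA1A and HSPA1B together this was 12.3 and 12.8 TPM with DMSO and 16.2 and 20.5 TPM with JG342. The ratio of the means was 1.47, with no overlap between the groups. The cytosolic HSP110 proteins HSPA4, HSPA4L and HSPH1 were left out of this sum and ratio. Their means were 111, 25.4 and 75.1 TPM with DMSO and 89.3, 22.95 and 45.8 TPM with JG342. A sum or ratio that holds them would differ. BAG6, counted among the 7 by its family name, made up between 36.6% and 40.8% of their sum. A sum or ratio without BAG6 would differ too. BAG1 taken alone kept a similar ratio, with 2.04 and 1.94 TPM per 100 with DMSO and 1.98 and 2.28 TPM per 100 with JG342, and its groups overlapped.

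In the ER, SIL1 per 100 TPM of HSPA5 was 7.79 and 6.25 with DMSO and 7.54 and 7.37 with JG342, and the groups overlapped. SIL1 and HSPA5 both passed as higher, and the JG342 ratios lay between those of the DMSO libraries. With HYOU1, the other ER exchange factor, added to SIL1 the ratio was 53.9 and 46.5 with DMSO and 69.1 and 57.3 with JG342, without overlap. In mitochondria the sum of GRPEL1 and GRPEL2 per 100 TPM of HSPA9 was 18.7 and 21.8 with DMSO and 13.9 and 15.7 with JG342, without overlap. That ratio was 0.729 times as high with JG342. These ratios are descriptions of transcripts, with no test, and say nothing of protein amounts.

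**Figure D4:**
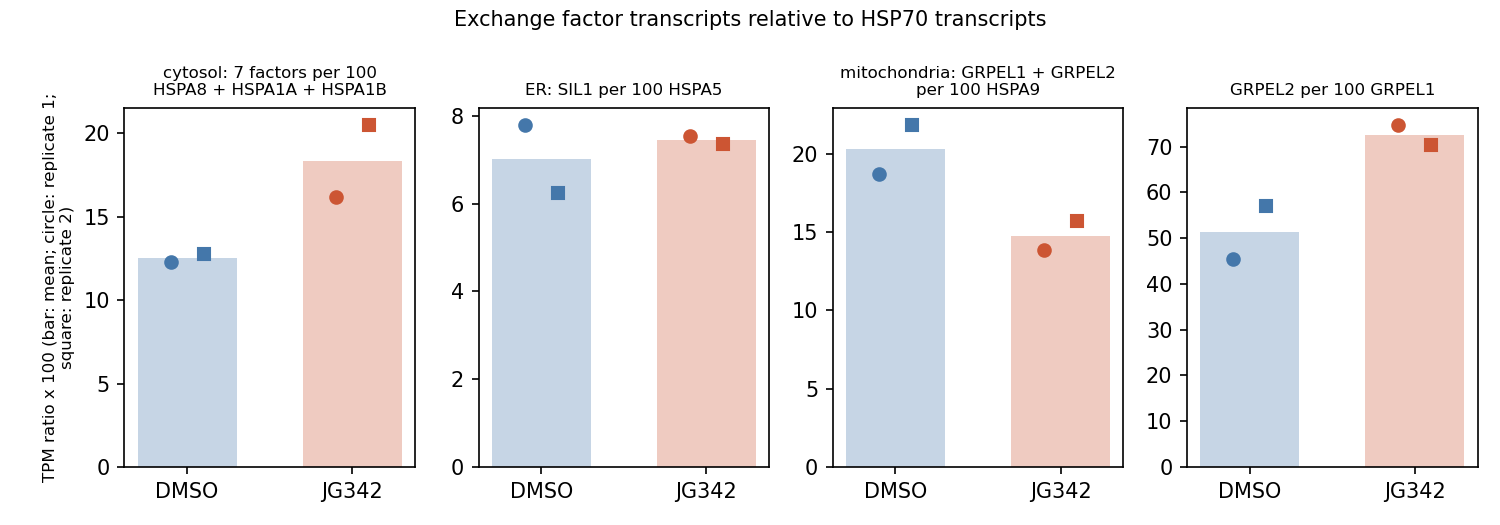
Exchange factor TPM per 100 TPM of the HSP70 transcripts of the same compartment, and GRPEL2 per 100 TPM of GRPEL1; bars are means of 2 libraries starting at 0, circles replicate 1 and squares replicate 2. The cytosolic ratio, of the 7 factors with BAG6 and without the HSP110 proteins, goes from 12.5 to 18.3. The ER ratio, of SIL1 without HYOU1, goes from 7.02 to 7.45 with overlapping libraries, and the mitochondrial ratio from 20.3 to 14.8.

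The HSP110 proteins form the other large class of exchange factors, and 2 of the 4 passed, in opposite directions, beside 18.4% of all fitted genes. HYOU1, the HSP110 relative of the ER, rose from 196 ± 3.63 TPM (SD, n = 2) to 351 ± 36.0 TPM (log2 fold change 0.83 ± 0.10 SE, limma adjusted p 0.00135). HSPH1, the stress-inducible cytosolic HSP110, fell from 75.1 ± 5.01 to 45.8 ± 5.85 TPM (-0.71 ± 0.12, limma adjusted p 0.00595). HSPA4 was -0.31 and HSPA4L -0.14 on the log2 scale, with limma adjusted p of 0.0531 and 0.580. HSPA4 passed in the fit blocked by replicate number (limma adjusted p 0.00372). It also passed as lower in the fit of genes averaging 5 TPM or more and after median scaling. Both ER exchange factors, SIL1 and HYOU1, passed as higher.

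Of 8 HSPA5 partners of the ER, HYOU1 counted again and SIL1 not, 4 passed as higher and none as lower. The shares of all fitted genes were 10.8% and 7.62%. The list's median log2 fold change was 0.44, beside 0.03 for all fitted genes. HYOU1 and the J-domain proteins DNAJB9 (0.99), DNAJC1 (0.49) and SEC63 (0.42) passed, with limma adjusted p of 0.00135, 0.00434, 0.0260 and 0.0259. SEC63 recruits HSPA5 to the translocation channel. The 4 that did not pass lay between -0.22 (DNAJC25) and 0.45 (DNAJC10). DNAJC10 and DNAJC3, which also act with HSPA5, passed in the fit blocked by replicate number (limma adjusted p 3.04e-05 and 0.0346). This made the count 6 in that fit, where 19.2% of all fitted genes passed as higher. The count of 4 went to 1 with low genes kept in the fit and to 2 without the variance trend. Over all genes the higher calls went from 1304 to 533 and 982 in those fits. With each library left out the list's median log2 fold change ran from 0.29 to 0.47. The DNAJC1 call also ended after median scaling and without DMSO replicate 2 or JG342 replicate 2, and the SEC63 call without DMSO replicate 1, DMSO replicate 2 or JG342 replicate 1.

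The 17 listed HSF1 targets gave a lower median, -0.52, over the 16 that were fitted, BAG3 included. Of these 13 passed as lower and none as higher, beside 7.62% and 10.8% of all fitted genes. HSP90AA1 (-0.78) and HSPB1 (-0.85) had the smallest p (limma adjusted p 0.00123 and 0.00127). The 3 that did not pass were BAG3 (-0.18), HSPA1A (-0.31) and HSPD1 (0.04), the mitochondrial chaperonin. The difference between BAG3 and the other HSF1 targets was not tested. The count of 13 was 7 with low genes kept in the fit and 7 without the variance trend. Over all genes the lower calls went from 917 to 295 and 526 in those fits. With each library left out the list's median log2 fold change ran from -0.53 to -0.5.

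The partners of the cytosolic factors are read against the 18.4% of all fitted genes that passed. None of the 7 genes of the BAG6 pathway for tail-anchored proteins passed by limma. None had an unadjusted p under 0.05, a cut whose share of all fitted genes was not counted. The 2 with the smallest p were GET4 (0.18, limma adjusted p 0.262) and CAMLG (0.18, limma adjusted p 0.303), and the list's median was -0.04. Of 5 fitted BAG3 partners 2 passed as lower, namely the small heat shock protein HSPB1 (-0.85) and the adaptor YWHAG (-0.43, limma adjusted p 0.0161). SQSTM1, the autophagy receptor p62, was 0.28 (limma adjusted p 0.0775, and 0.00162 in the fit blocked by replicate number), and HSPB8 was listed at 0.21 TPM or less. The YWHAG call ended with low genes kept in the fit, without the variance trend, and without DMSO replicate 1, DMSO replicate 2 or JG342 replicate 2.

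Among 6 fitted partners of the other BAG proteins and of HSPBP1, BCL2 alone passed. BCL2, which blocks apoptosis at mitochondria and binds BAG1, was at 27.42 and 21.29 TPM with DMSO and 38.04 and 34.29 TPM with JG342. Its groups did not overlap, and its log2 fold change was 0.56 ± 0.14 (SE; limma adjusted p 0.0273), the opposite direction to BAG1. The BCL2 call ended after median scaling (0.49, limma adjusted p 0.0581), after quantile normalization, with low genes kept in the fit, without the variance trend, and without DMSO replicate 2 or JG342 replicate 1. TNFRSF1A, the receptor bound by BAG4, was -0.21 (limma adjusted p 0.308), ST13, an HSP70 partner that slows ADP release, was -0.05, and STUB1 was 0.13.

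Of the 7 HSPA9 partners in mitochondria DNAJC19, a J-domain protein of the import motor, passed as higher (0.44 ± 0.12 SE, limma adjusted p 0.0360). TIMM44, which anchors HSPA9 at the import channel, was 0.38 (limma adjusted p 0.0956) and DNAJA3 was 0.27 (0.0876). All 3 passed as higher in the fit blocked by replicate number, where 19.2% of all fitted genes did. Without the block 10.8% of all fitted genes passed as higher. The list's median was 0.10. The DNAJC19 call ended after median scaling or quantile normalization, with low genes kept in the fit, without the variance trend, and without DMSO replicate 1, DMSO replicate 2 or JG342 replicate 2; without JG342 replicate 1 the list had 2 genes past the threshold.

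**Figure D5:**
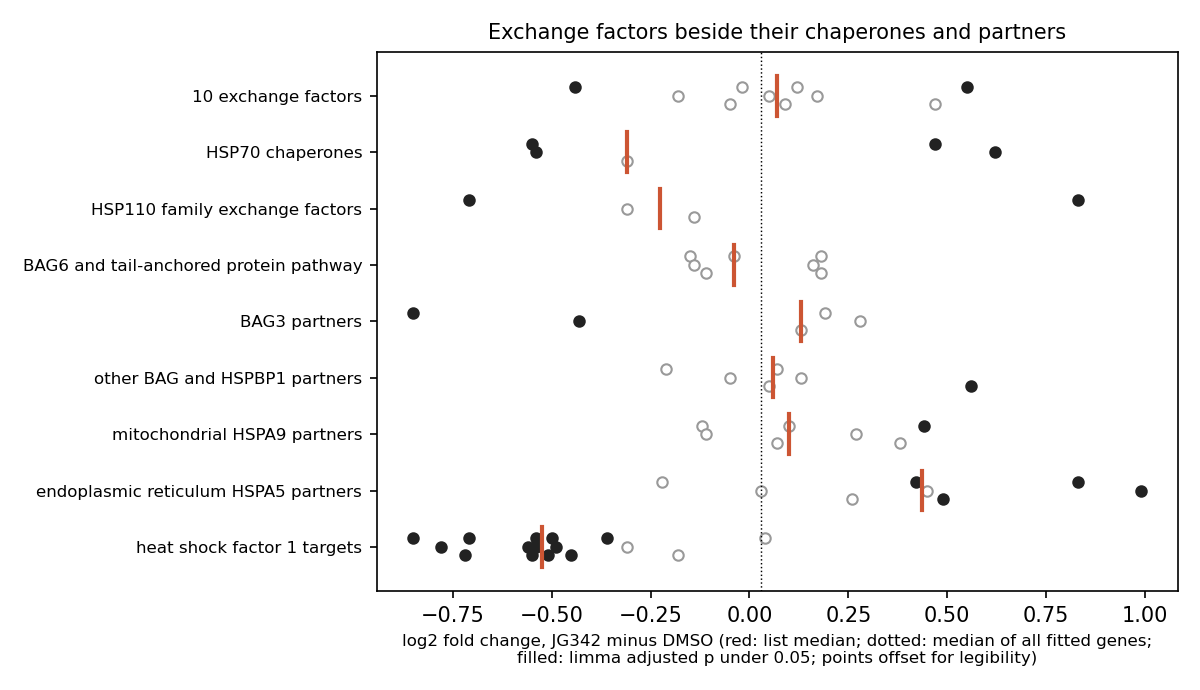
Log2 fold changes (JG342 minus DMSO) of the 10 exchange factors and of the fitted genes of each partner list; 1 point per gene, filled where the limma adjusted p is under 0.05, red lines for list medians and a dotted line at the median of all fitted genes (0.03). The 10 factors have a median of 0.07, the HSPA5 partners of the ER 0.44 and the HSF1 targets -0.52.

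The DNA in front of the factors that passed is printed here because BAG1 and SIL1 were the 2 factors that passed, and because stress elements known from HSP70 gene promoters can be searched in it. RefSeq (GRCh38.p14) promoter windows, 250 bases before to 50 bases after a start site, were found for 8 of the 10 factors, in 12 windows; BAG4 and GRPEL1 had no entry. The stretches are written 5′ to 3′ on the gene's strand and leave out annotated exons, so that the BAG1 stretch starts beside exons of its divergent neighbour CHMP5. Capitals mark the letters GAANNTTC, a pair of facing heat shock element units.
BAG1, chr9:33264721-33264878, minus strand: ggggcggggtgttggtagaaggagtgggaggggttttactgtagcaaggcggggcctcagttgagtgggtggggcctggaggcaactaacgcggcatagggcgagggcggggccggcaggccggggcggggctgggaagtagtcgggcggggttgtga
SIL1, chr5:139198399-139198618, minus strand: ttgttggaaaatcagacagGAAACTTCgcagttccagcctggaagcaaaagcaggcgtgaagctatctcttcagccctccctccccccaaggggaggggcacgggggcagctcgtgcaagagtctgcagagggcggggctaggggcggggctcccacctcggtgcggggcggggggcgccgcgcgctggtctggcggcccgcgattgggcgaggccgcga

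G and C made up 69.0% of the BAG1 stretch and 68.6% of the SIL1 stretch, beside a median of 58.0% in the 250 bases before the start over all promoters. The SIL1 window held 1 match to GAANNTTC, 231 bases before the start, and the BAG2 window held another; 6.77% of all 35116 windows held 1 or more. None of the 12 windows held TTCNNGAA (7.74% of all windows), the longer heat shock element of 3 alternating units TTC, GAA and TTC with NN between them (0.490%), the ATF4 element TGATGNAA (3.62%) or the ER stress element ERSE (0.0769%), searched on both strands. The shorter heat shock letters lie within the longer element. For comparison, HSPA8 and HSPA5 gave these matches to the longer elements in the same kind of window, with the fixed letters of the element and its spacer in capitals.
HSPA8, chr11:123062354-123062366, minus strand: GAAAGTTCCAGAA
HSPA8, chr11:123062179-123062191, minus strand: TTCTGGAAGGTTC
HSPA5, chr9:125241391-125241409, minus strand: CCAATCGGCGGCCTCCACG

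A match or its lack describes these letters in these windows and is no measure of binding. HSPA8, with 2 longer heat shock elements, and HSPA1B, with only the shorter letters GAANNTTC, both passed as lower after JG342. HSPA9, with the shorter letters TTCNNGAA, passed as higher. BAG3, with none of these in its window, did not pass. HSPA5, with an ER stress element, and SIL1, without one, both passed as higher. A link between these letters and the changes was not tested.

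The genes whose 4 libraries lay closest in pattern to the 2 factors that passed were found by Euclidean distance of log2(TPM + 1), centred on each gene's mean, among 9813 other genes averaging 5 TPM or more. For BAG1 they were INTS9 (distance 0.0188, 16.84 and 16.64 TPM with DMSO, 12.59 and 11.72 TPM with JG342) and MDN1 (distance 0.0273). For SIL1 they were HPS4 (distance 0.0162, 25.41 and 23.87 TPM with DMSO, 35.91 and 36.94 TPM with JG342) and TMEM219 (distance 0.0241). With 4 libraries many genes lie near any pattern.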

How the data were processed

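Total RNA of MM.1S cells was sequenced by a service provider on a BGISEQ-500 instrument, per the labels' protocols. The submitters' processing notes name HISAT2 2.0.4, Bowtie2 2.2.5 and RSEM 1.2.12. Genome build, annotation and filters are not given in the sources used here. The TPM values that the authors deposited, 1 per gene and library, were estimated and scaled to library totals before deposit; that the unit is TPM was read from the column sums and from RSEM in the submitters' processing notes, and whether a row sums isoforms is not stated.

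Values were fitted as log2(TPM + 1) for genes averaging 1 TPM or more, a scale that understates changes of low genes, with limma 3.58.1 in R 4.3.3 (treatment as the only term, mean-variance trend, 6.89 prior and 2 residual degrees of freedom). P-values were two-sided, adjusted over 12042 genes by Benjamini-Hochberg at 0.05; 4015 genes were left out. Same-numbered libraries share a prefix in their descriptions, and their deviations from the treatment means correlated across genes (Pearson r 0.27, Spearman rho 0.30), so a second fit had the number as a block; it left 1 residual degree of freedom, and limma then took each gene's spread wholly from the trend over all genes. Both fits were run on simulated data in which 200 genes differed between treatments. All 200 changes had the same size, up or down, which was larger than the change of BAG1 or SIL1. Each fit and setting had its own single random draw, so the shares below do not compare the fits on the same data. Wrong calls at changes of the size of BAG1 or SIL1 were not measured. Of the calls without the block, 9.48% were wrong with no replicate shift and 9.3% with a shift of SD 0.1. With the block these shares were 12.9% and 5.69%. On simulated data in which 0 genes differed, the fit without the block made 0 calls at either shift. The blocked fit made 3 calls with no replicate shift and 4 with a shift of SD 0.1. P-values rest on the spread between 2 libraries per treatment, which limma draws towards the trend over all genes. The prior had more degrees of freedom (6.89) than each gene's own residuals (2). No spread beyond these libraries is measured.

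The genes, lists and tests were chosen with earlier results of these data known. Named genes were the 10 factors, the 5 HSP70 genes and the 2 nearest in pattern. From each list they were the 2 genes of smallest p, with all that passed where 4 or fewer did. Other list genes, RAB23, LSM1 and CHMP5 were named after their values were seen. Alternatives were pseudocounts of 0.1 and 5, no filter, a minimum mean of 5 TPM, median scaling, quantile normalization, no variance trend, the block with and without median scaling, each library left out, and a threshold of 0.01. Copies and overlapping exons were searched in GENCODE release 29 with BLAST 2.17.0 (95% identity or more, covering 20% or more of a transcript).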

Additional observations from a re-analysis of the deposited data

How the results depend on the processing

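The count of 2 factors past the threshold (1 higher, 1 lower) was 1 (SIL1) with low genes kept in the fit or without the variance trend, so that 0 passed as lower. At a threshold of 0.01 it was 0, with 0 higher and 0 lower by limma. At an unadjusted limma p under 0.05 it was 3, and the share of all fitted genes at that cut was not counted. Without DMSO replicate 2 the calls of both BAG1 and SIL1 ended and GRPEL2 passed in their place, as given above. With each library left out the log2 fold change ran from -0.48 to -0.4 for BAG1 and from 0.51 to 0.59 for SIL1. For GRPEL2 it ran from 0.25 to 0.69. With the replicate block 2 factors passed as higher, with or without median scaling. The count over all genes was 2221. It was 828 without the filter, 788 at the threshold of 0.01, 4207 with the replicate block and 4226 with the block and median scaling, and from 767 (without DMSO replicate 2) to 1825 with each library left out; it was 1046 without DMSO replicate 1. The block changed no call among the 10 factors other than that of GRPEL2. Of the calls over all genes 58.7% were higher, against 44.6% after median scaling, where the median fold change of all genes went from 0.03 to -0.04. Small changes turned sign: BAG5 was -0.01 after median scaling, -0.0047 after quantile normalization, -0.01 with the block and median scaling, and -0.02 to 0.12 with single libraries left out, where HSPBP1 ran from -0.02 to 0.25 and GRPEL1 from -0.16 to 0.11. Over 130 combinations of factor and alternative, the threshold of 0.01 not among them, 114 kept direction and side of the threshold. Most of these were of the 8 factors that did not pass at first. BAG1 kept both in 8 alternatives and lost its call in 5, and SIL1 kept both in 12 and lost its call in 1. The cause of these changes was not tested, and TPM hold no depth from which counting error could be given.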
